A study of Homo sapiens with 3 samples.

Results

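The library labelled stem was compared with the library labelled luminal, both made from MCF10A, over every panel gene with 10 or more counts in the luminal library. Of 110 endogenous genes, 63 met that minimum. Among the 63 were 5 housekeeping genes (ACTB, MRPL19, SF3A1, PSMC4 and RPLP0), which set the scale between the libraries and are described apart, so 58 genes were compared. The other 47 genes had fewer than 10 luminal counts.

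MCF10A is an immortalised line of human mammary epithelial cells that does not form tumours, and its subpopulations named luminal, basal and stem gave 1 library each. The labels give neither the surface markers nor the method by which the subpopulations were separated, nor any treatment, growth condition or passage, and all cells come from a single line. Total RNA was counted on the NanoString nCounter, which hybridises a colour-coded probe to each target RNA and counts the probes without amplification. The extraction kit that the labels name is one for fixed, paraffin-embedded tissue. The study's title concerns changes of cell state that the transcription factor Slug governs, and this comparison asks how the stem state differs in expression from the luminal state.

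In the mammary epithelium, an inner layer of luminal cells, rich in keratins such as KRT8 and KRT19, lies on an outer basal layer rich in KRT5, KRT14 and KRT17. Stem and progenitor cells of the gland renew both layers, and Slug is known for its part in the basal and stem state. Cell division runs through entry into the cycle, DNA replication in S phase and chromosome segregation in mitosis, each with its own set of expressed genes, and many of these genes lie on the panel used here. CD24, a small surface glycoprotein, is commonly used to sort mammary epithelial cells.

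The libraries differed greatly in depth. Endogenous counts totalled 9136 for luminal and 792367 for stem, an 86.7-fold difference, and 8891 for basal. The 58 genes held 64.3% of endogenous counts in luminal and 67.0% in stem. Their median was 35.5 counts in luminal and 4188 in stem, so that the luminal count set the precision of every ratio. The labels could be checked only in part. The 8 luminal markers on the panel together held 13.96% of endogenous counts in luminal, 12.2% in basal and 10.7% in stem. KRT8 gave 1239 of these 1275 luminal counts, and 4 of the 8 (GATA3, ESR1, PGR and KRT19) stood at the lowest listed value of 1 in luminal. The 4 basal markers CDH3, KRT5, KRT14 and KRT17 held 22.2%, 20.9% and 20.2% of luminal, basal and stem counts. None of 7 stem or progenitor markers and none of the markers of other cell types was on the panel.

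Normalised counts were obtained by dividing by the library's geometric mean of the housekeeping counts, and are given per 100 of it. That mean was 93.1-fold higher in stem than in luminal. With 1 library a side there is no replicate check and no test between the subpopulations was possible. The 95% interval after each ratio covers counting error only, and takes the housekeeping scale as exact. The counting error of the scale itself is ±0.19 on the log2 scale (95%) and moves all genes alike. A gene is called 2-fold higher or lower where its ratio reached 2-fold and its interval excluded 1.

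On the housekeeping scale most of the 58 genes were within 1.5-fold. Their median log2 ratio of stem over luminal was 0.29, the lower and upper quartiles were -0.11 and 0.47, and 43 of the 58 were within 1.5-fold. Over all 105 genes, with no count minimum, the median was 0.02. That median takes in 29 genes listed at 1 in luminal, the lowest listed value, whose ratios have little meaning. With a minimum of 5 luminal counts the median was 0.29. On the scale of the spiked positive controls the median of the 58 genes was 1.95 and 56 of them were called 2-fold higher. These controls are added RNA, so their scale does not correct for the amount of sample RNA. Endogenous counts per positive control count were 3.27 in luminal and 11.4 in stem. Whether the amount of sample RNA differed was not tested. Ratios were above 1 for 39 genes and below 1 for 19. The 2-fold call was met by 2 genes in each direction, in each case 1.9% of the 105 panel genes outside the housekeeping set. The interval lay above 1 for 19 genes (18.1% of the 105) and below 1 for 4 (3.81%). With the counting error of the scale added to each interval, 16 lay above 1, and those of CDC20, CAV1 and F11R then included 1. No gene under the minimum of 10 counts was called by either criterion, and few of those genes had the counts to be called. Genes just inside the minimum were SPINT1 with 10 counts and a log2 ratio of -0.44, NDC80 with 10 and 0.27, DDR1 with 12 and -0.30, and RAD50 with 12 and a ratio just under 2-fold. Just outside were ANLN at 0.84, CLDN7 at -1.04 and the gene listed as LEPRE1 at 0.89, each with 7 luminal counts.

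**Figure D1:**
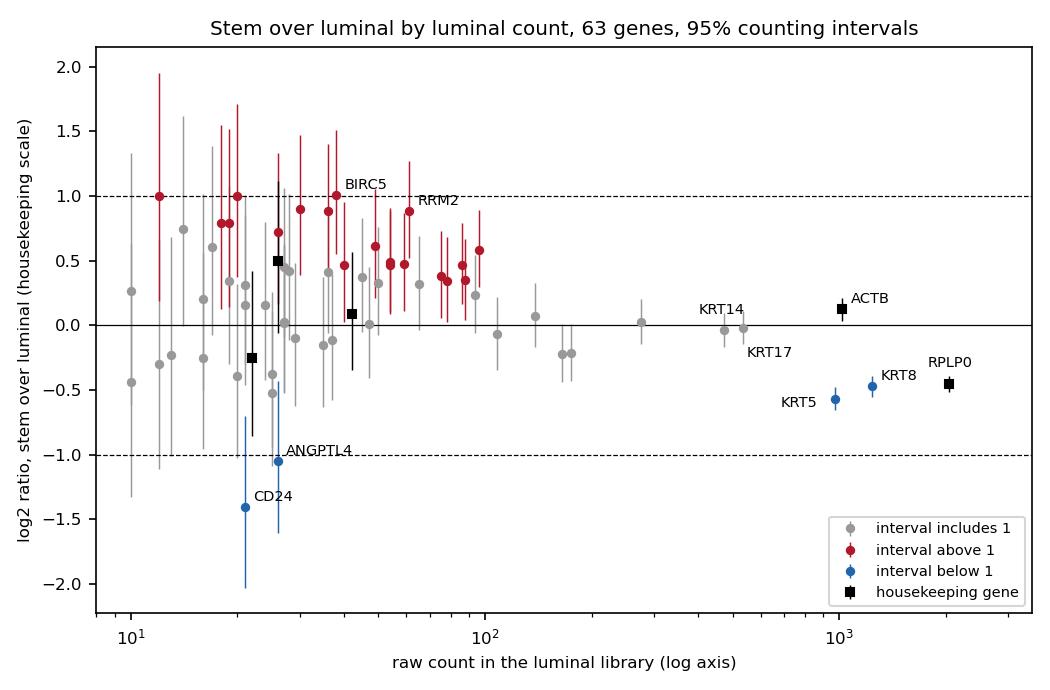
Log2 ratio of stem over luminal on the housekeeping scale (vertical axis) against the raw luminal count (horizontal log axis) for the 58 genes and the 5 housekeeping genes (squares). Bars are 95% counting intervals, and dashed lines mark 2-fold. CD24 and ANGPTL4 lie below the lower dashed line, BIRC5 touches the upper one, and intervals narrow from left to right.

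The precision followed the luminal count. The full width of the 95% interval had a median of 1.57 on the log2 scale for the 12 genes with 10 to 19 luminal counts, 1.15 for the 25 genes with 20 to 49, 0.65 for the 16 genes with 50 or more but under 200, and 0.25 for the 5 genes with 200 or more. An interval that includes 1 for a gene of few counts therefore leaves room for a sizeable difference in either direction. The median log2 ratios of these bands were 0.31, 0.16, 0.35 and -0.04. The 5 genes of the highest band were KRT5, KRT8, KRT14, KRT17 and DSP.

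The genes of cell division were the largest group. In bulk RNA, fewer cells of a kind and less RNA per cell cannot be told apart, here as for every list below. Of 19 such genes with 10 or more luminal counts (21 on the panel, leaving MYC and RB1 aside), 18 had ratios above 1 and 9 had intervals above 1, with none below, beside 10 with intervals above and 4 below among the 39 other genes compared. Their median log2 ratio was 0.38, against 0.29 over all 58 genes and 0.03 over the 39 genes outside this group. By share of endogenous counts, a measure free of the housekeeping scale, the 13 panel genes of the mitosis list held 6.69% of the luminal library (exact binomial interval 6.18 to 7.22), 8.39% of the basal library (7.82 to 8.99) and 9.13% of the stem library (9.07 to 9.20). The 10 genes of the S phase and entry list, here with MYC and RB1, held 3.96% (3.57 to 4.38), 4.43% (4.01 to 4.88) and 6.10% (6.05 to 6.16) of those libraries. Both shares were lowest in luminal, and for the S phase list luminal and basal had overlapping intervals. A share also depends on the other genes. From luminal to stem the keratins fell from 35.2% to 29.8% and the housekeeping genes from 34.5% to 31.8%. Basal-like genes other than keratins rose from 2.78% to 4.21% and cell junction genes from 4.33% to 5.01%. The receptor and epithelial regulator lists also rose. The lipid and hypoxia, mesenchymal and hormone-linked lists had overlapping intervals. A higher share in stem was thus not particular to cell division.

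**Figure D2:**
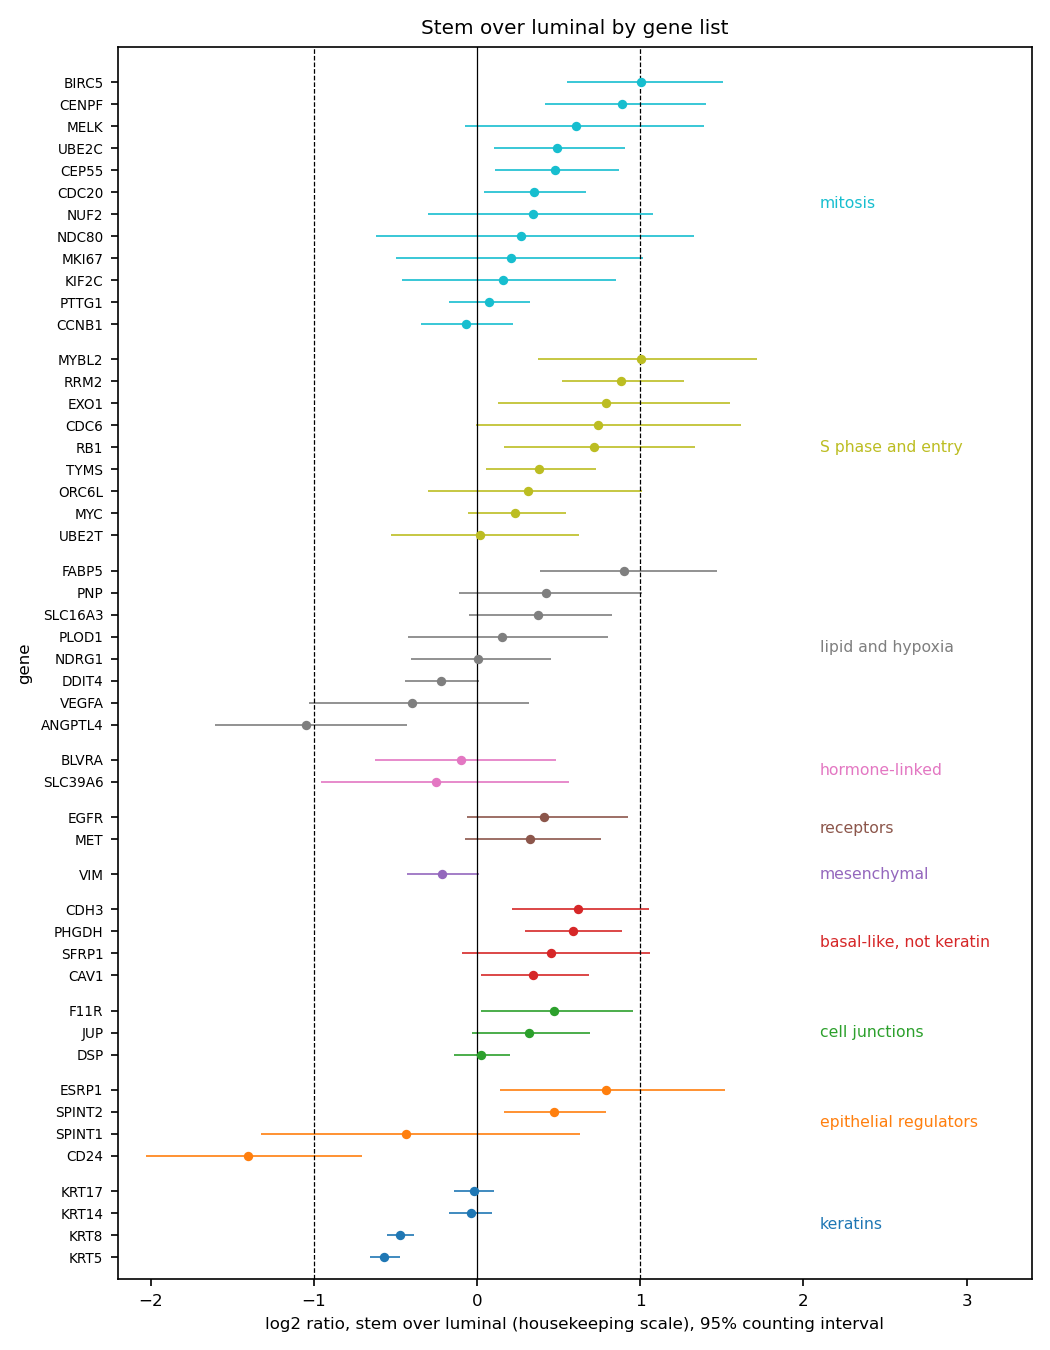
Log2 ratio of stem over luminal with 95% counting intervals (horizontal axis) for 49 of the 58 genes, grouped by gene list and ordered within each list. Dashed lines mark 2-fold. Mitosis and S phase genes lie mostly to the right of 0 and KRT5 and KRT8 to the left with narrow intervals, while the lipid and hypoxia list spans both sides.

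Among genes of entry and S phase, MYBL2 (NM_002466.2), a transcription factor that activates cell-cycle genes, had 20 counts in luminal, 30 in basal and 3728 in stem. Its normalised counts were 14.5 in luminal, 25.3 in basal and 29.0 in stem, and the ratio of stem over luminal was 2.002 (log2 interval 0.37 to 1.71), which only just met the 2-fold limit. RRM2 (NM_001034.1), a subunit of the ribonucleotide reductase that makes the precursors of DNA, had 61, 50 and 10462 counts, or normalised counts of 44.2, 42.2 and 81.4. The stem library stood well above both others, with a log2 ratio of 0.88 (0.52 to 1.27) over luminal and 0.95 (0.55 to 1.38) over basal. EXO1, an exonuclease of DNA repair, had 18 counts in luminal and 2898 in stem, with a log2 ratio of 0.79 (0.13 to 1.55). TYMS, thymidylate synthase, had 75 and 9089 counts and a log2 ratio of 0.38 (0.05 to 0.73). RB1, which represses entry into S phase, was also higher in stem, with 26 and 3982 counts and a log2 ratio of 0.72 (0.16 to 1.33). CDC6, a licensing factor of replication origins, had 14 and 2181 counts and a log2 ratio of 0.74 (-0.01 to 1.62), an interval that just reached 1. ORC6L (now ORC6), a subunit of the origin recognition complex, stood at 0.32 (-0.30 to 1.01). UBE2T, a ubiquitin-conjugating enzyme of DNA crosslink repair, stood at 0.02 (-0.53 to 0.62) and the transcription factor MYC at 0.23 (-0.06 to 0.54). The list thus had 5 of 9 genes with intervals above 1 and a median of 0.72, beside 19 of 58 and 0.29 over all genes compared.

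Among genes of mitosis, BIRC5 (NM_001012270.1), which encodes survivin of the chromosomal passenger complex, had 38 counts in luminal, 57 in basal and 7106 in stem. Its normalised counts were 27.5 (19.5 to 37.8) in luminal, 48.2 in basal and 55.3 (54.0 to 56.6) in stem, a 2.01-fold difference between stem and luminal. The basal library lay near the stem library, with a log2 ratio of stem over basal of 0.20 (-0.17 to 0.60). CENPF, a kinetochore protein, had 36 and 6195 counts in luminal and stem and a log2 ratio of 0.89 (0.42 to 1.40). Smaller differences were seen for UBE2C, a ubiquitin-conjugating enzyme of the anaphase-promoting complex, at 0.49 (0.10 to 0.90), and for its activator CDC20 at 0.35 (0.04 to 0.67). CEP55, which acts at the last step of cytokinesis, stood at 0.48 (0.11 to 0.87). With 5 of 12 genes above, the remaining 7 had intervals that included 1. These were the kinase MELK at 0.61 (-0.07 to 1.39), the kinetochore genes NUF2 at 0.35 and NDC80 at 0.27, the proliferation marker MKI67 at 0.21 (-0.50 to 1.02), the microtubule motor KIF2C at 0.16, PTTG1, which encodes securin, at 0.07 (-0.17 to 0.33), and CCNB1, which encodes cyclin B1, at -0.07 (-0.34 to 0.22). CCNB1 and PTTG1 had over 100 luminal counts and narrow intervals. Pairs of genes were also set against each other within a library. BIRC5 and CCNB1 are the mitosis genes with the highest and the lowest ratio, so that their pair describes the range of the list. BIRC5 over CCNB1 was 0.35 within the luminal library and 0.74 within the stem library, so that the pair ratio was 2.11-fold higher in stem (log2 1.07, 0.53 to 1.65). MYBL2 over MKI67 had a pair difference of 0.79 (-0.25 to 1.82), and RRM2 over TYMS of 0.50 (-0.01 to 1.01), neither separable from equal change.

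The sequences before the transcription start of 3 cell-division genes with intervals above 1 are shown because they hold short elements known from cell-cycle promoters. They are the 250 bases before the RefSeq start (GRCh38.p14, all on the plus strand), written 5′ to 3′, for RRM2 at chr2:10122489-10122738, CDC20 at chr1:43358731-43358980 and TYMS at chr18:657403-657652. Capitals mark CCAAT, the box bound by NF-Y, then TTTGAA or TTCGAA, the cell cycle homology region, and TTTCCCGC, TTTGGCGC or TTTCGCGC, forms of the E2F site, each searched on both strands.
RRM2: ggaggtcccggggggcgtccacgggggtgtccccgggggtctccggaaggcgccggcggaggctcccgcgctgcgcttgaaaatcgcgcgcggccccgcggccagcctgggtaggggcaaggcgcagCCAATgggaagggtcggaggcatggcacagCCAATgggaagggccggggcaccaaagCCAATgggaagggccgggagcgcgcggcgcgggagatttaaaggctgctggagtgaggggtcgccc
CDC20: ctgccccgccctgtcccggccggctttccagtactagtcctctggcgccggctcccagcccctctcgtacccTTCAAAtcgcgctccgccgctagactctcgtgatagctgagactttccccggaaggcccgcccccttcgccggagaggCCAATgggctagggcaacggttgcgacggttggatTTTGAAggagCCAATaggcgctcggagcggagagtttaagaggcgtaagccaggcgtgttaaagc
TYMS: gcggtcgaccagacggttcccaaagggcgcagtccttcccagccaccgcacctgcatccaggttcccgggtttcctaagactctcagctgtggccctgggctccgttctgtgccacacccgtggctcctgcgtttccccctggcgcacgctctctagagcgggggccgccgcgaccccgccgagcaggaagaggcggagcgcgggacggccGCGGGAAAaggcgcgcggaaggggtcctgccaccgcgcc
RRM2 held 3 CCAAT boxes, CDC20 held 2 CCAAT boxes and 2 matches of the cell cycle homology region, and TYMS held 1 E2F match. Of the 58 genes, 44 had a promoter in the table used, 17 of them cell-division genes. CCAAT was present in 10 of the 17 and in 9 of the other 27, against 32.0% of 35116 human promoters of this length. The cell cycle homology region was present in 4 of the 17, in 1 of the 27 and in 14.3% of all promoters, and the E2F forms in 1, in 1 and in 2.32%. Other elements were searched too. ACGTG, the core of the hypoxia response element, was present in 9 of the 17, in 3 of the 27 and in 18.5%, and GGGCGG, the GC box, in 11, in 18 and in 42.6%. Cell-division genes thus held ACGTG about as often as CCAAT. CCNB1 and PTTG1, whose intervals included 1, held 2 and 3 CCAAT boxes, so the box was not limited to genes with intervals above 1. MYBL2 and EXO1, whose intervals lay above 1, held no match of CCAAT, the cell cycle homology region or E2F. BIRC5 was not among the genes with a promoter. A match is a description of the letters only.

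Of the 4 keratins with 10 or more luminal counts, a basal and a luminal keratin had intervals below 1, and the other basal keratins had intervals that included 1. KRT5 (NM_000424.2), a keratin of basal cells, had 972 counts in luminal, 917 in basal and 61068 in stem, or normalised counts of 704, 775 and 475. Its log2 ratio of stem over luminal was -0.57 (-0.66 to -0.47). KRT8 (NM_002273.3), a keratin of luminal cells, had 1239, 1076 and 83241 counts, or normalised counts of 898, 909 and 648, and a log2 ratio of -0.47 (-0.55 to -0.39). For both genes the stem library was below both others. The basal keratins KRT14, with 473 and 42822 counts, and KRT17, with 534 and 49063, had log2 ratios of -0.04 (-0.17 to 0.09) and -0.02 (-0.14 to 0.11). These depended on the scale. Under median of ratios they were -0.33 (-0.46 to -0.20) and -0.31 (-0.43 to -0.18), without RPLP0 -0.15 and -0.13 with intervals below 1, and on the positive control scale 1.62 and 1.64. In the basal library these last genes stood apart from each other, with a normalised count of 477 for KRT14, above its 343 in luminal, and of 289 for KRT17, below its 387.

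Pair ratios within a library need no scale between libraries. They come from the same counts as the ratios above, so they restate the division of the 4 keratins and do not check it. KRT5 over KRT14 was 2.05 in luminal and 1.43 in stem, a log2 difference of -0.53 (-0.69 to -0.37). KRT8 over KRT17 was 2.32 and 1.70, a difference of -0.45 (-0.60 to -0.30). KRT5 over KRT8 differed by -0.10 (-0.22 to 0.03) and KRT14 over KRT17 by -0.02 (-0.20 to 0.16). KRT5 and KRT8 were thus lower relative to KRT14 and KRT17, while within each of these pairs the difference was within counting error. The 5 keratin genes of the panel held 35.2% (34.3 to 36.2) of endogenous counts in luminal and 29.8% (29.7 to 29.9) in stem. The abundant housekeeping gene RPLP0, a ribosomal protein gene with 2040 luminal counts, also had a ratio below 1, at -0.45 (-0.52 to -0.39). ACTB, with 1021 luminal counts, had 0.12 (0.03 to 0.21). Among the spiked positive controls, the most abundant, POS_A, was 23.7-fold higher in stem than in luminal, POS_B 30.9-fold, POS_C 28.7-fold and POS_D 26.2-fold. The least abundant, POS_E with 8 luminal counts and POS_F listed at 1, were 19.2-fold and 62.0-fold higher, with too few counts to place them. On the housekeeping scale POS_A had a log2 ratio of -1.97 (-2.03 to -1.91) and POS_B of -1.59 (-1.74 to -1.44), intervals that did not overlap. POS_C at -1.70 (-1.96 to -1.42) and POS_D at -1.83 (-2.27 to -1.35) overlapped both. Whether the abundance of a target has a part in the keratin ratios was not tested.

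**Figure D3:**
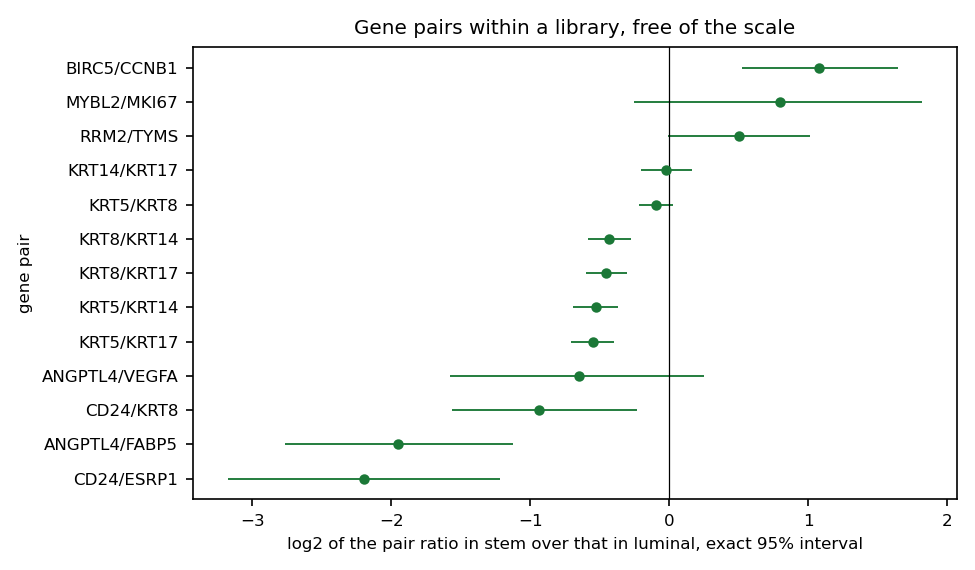
Log2 of the ratio of a pair of genes in stem over the same ratio in luminal (horizontal axis) with exact 95% counting intervals, for 13 pairs of genes with 10 or more luminal counts. Points left of 0 are pairs whose first gene was relatively lower in stem. CD24 over ESRP1 is farthest left at -2.19 and BIRC5 over CCNB1 farthest right at 1.07.

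The epithelial regulators held both the lowest ratio and one of the highest. CD24 (NM_013230.2) had 21 counts in luminal, 4 in basal and 738 in stem. Its normalised counts were 15.2 (9.42 to 23.3), 3.38 (0.92 to 8.65) and 5.75 (5.34 to 6.17). Luminal stood above both others, and stem was 2.65-fold below it (log2 ratio -1.41, interval -2.03 to -0.70). CD24 met the minimum only through the luminal library, where it was high. Its stem count is below 931, the equivalent of 10 luminal counts, so its ratio and its pair ratios are a description. The stem counts of SPINT1 (688) and DDR1 (908) are also below 931. The gene ESRP1 (NM_001034915.2), which directs the splicing of epithelial transcripts, had 19, 4 and 3053 counts and normalised counts of 13.8, 3.38 and 23.8. It was higher in stem, at 0.79 (0.14 to 1.52), where CD24 was lower. CD24 over ESRP1 was 1.11 in luminal and 0.242 in stem, a log2 pair difference of -2.19 (-3.18 to -1.22). CD24 also stood lower in stem relative to KRT8, by -0.93 (-1.56 to -0.23). SPINT2, an inhibitor of serine proteases of the cell surface, had 86 and 11086 counts and a log2 ratio of 0.47 (0.16 to 0.79). Its relative SPINT1 had 10 and 688 counts and -0.44 (-1.32 to 0.63).

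Of the cell junction list, 3 of 7 panel genes had 10 or more luminal counts, and all 3 ratios were above 1. F11R, which encodes the tight junction protein JAM-A, had 40 and 5155 counts and a log2 ratio of 0.47 (0.02 to 0.96). JUP, plakoglobin of adherens junctions and desmosomes, stood at 0.32 (-0.03 to 0.69). DSP, desmoplakin of the desmosome, had 276 and 26177 counts and stood at 0.03 (-0.14 to 0.20). VIM, the intermediate filament vimentin and the only gene of the mesenchymal list with enough counts, had 175 and 14062 counts and -0.21 (-0.43 to 0.01).

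Of 8 panel genes of the basal-like profile other than keratins, 4 had 10 or more luminal counts. All 4 had ratios above 1 and 3 had intervals above 1, with a median of 0.52, beside 19 of 58 and 0.29 over all genes compared. The other 4, ACTR3B, CRYAB, FOXC1 and MIA, were listed at 1 in luminal. CDH3, which encodes the P-cadherin of basal cells, had 49 counts in luminal, 37 in basal and 6991 in stem, with normalised counts of 35.5, 31.3 and 54.4. Its log2 ratio was 0.62 (0.21 to 1.05) over luminal and 0.80 (0.34 to 1.31) over basal. PHGDH, the first enzyme of serine synthesis, had 96, 126 and 13414 counts and a log2 ratio of 0.59 (0.30 to 0.89) over luminal, whereas stem over basal was -0.03 (-0.28 to 0.24). CAV1, caveolin, stood at 0.34 (0.02 to 0.68) over luminal. SFRP1, a secreted Wnt antagonist, stood at 0.45 (-0.09 to 1.06). These ratios ran opposite to that of the basal keratin KRT5.

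The receptors EGFR, with 36 and 4452 counts, and MET, with 50 and 5840, had log2 ratios of 0.41 (-0.06 to 0.93) and 0.33 (-0.07 to 0.76), intervals that included 1. Only 2 of 13 genes of the hormone-linked list had 10 or more luminal counts, the zinc transporter SLC39A6 at -0.25 (-0.95 to 0.56) and BLVRA, biliverdin reductase, at -0.10 (-0.63 to 0.48).

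The lipid and hypoxia list held genes near both ends of the range, with a median of 0.08 over 8 genes. ANGPTL4 (NM_001039667.1), which is secreted and inhibits lipoprotein lipase, had 26 counts in luminal, 16 in basal and 1171 in stem. Its normalised counts of 18.8, 13.5 and 9.12 put stem lowest, 2.07-fold below luminal, with a log2 ratio of -1.05 (-1.61 to -0.43). Stem over basal was -0.57 (-1.27 to 0.24). FABP5 (NM_001444.1), which binds and carries fatty acids, went the other way, with 30, 23 and 5215 counts and a log2 ratio of 0.90 (0.39 to 1.47) over luminal and 1.06 (0.48 to 1.72) over basal. ANGPTL4 over FABP5 was 0.867 in luminal and 0.225 in stem, a log2 pair difference of -1.95 (-2.76 to -1.13). As the genes of the list with the lowest and the highest ratio, they describe its range only. The other 6 genes compared from this list had intervals that included 1. VEGFA, an angiogenic factor, stood at -0.40 (-1.03 to 0.32), DDIT4, an inhibitor of growth signalling under stress, at -0.22 (-0.44 to 0.01), and NDRG1 at 0.01 (-0.41 to 0.45). SLC16A3, an exporter of lactate, stood at 0.37 (-0.05 to 0.83), the purine enzyme PNP at 0.42 (-0.11 to 1.01), and the collagen-modifying enzyme PLOD1 at 0.16 (-0.42 to 0.80). ANGPTL4 over VEGFA differed by -0.65 (-1.58 to 0.25).

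The 9 genes outside these lists had a median of -0.15. RAD50, of the complex that senses DNA breaks, had 12 counts in luminal and 2231 in stem, and its ratio of 1.997 (log2 interval 0.19 to 1.95) was just under 2-fold, on the lowest luminal count of the genes with intervals above 1. GNG11, a G protein subunit, stood at -0.52 (-1.09 to 0.11), the collagen receptor DDR1 at -0.30 (-1.11 to 0.66), VAMP8, a vesicle fusion protein, at -0.15 (-0.63 to 0.37), NT5E, the surface enzyme CD73, at -0.11 (-0.58 to 0.39), and EMP3, a membrane protein, at 0.03 (-0.52 to 0.63).

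**Figure D4:**
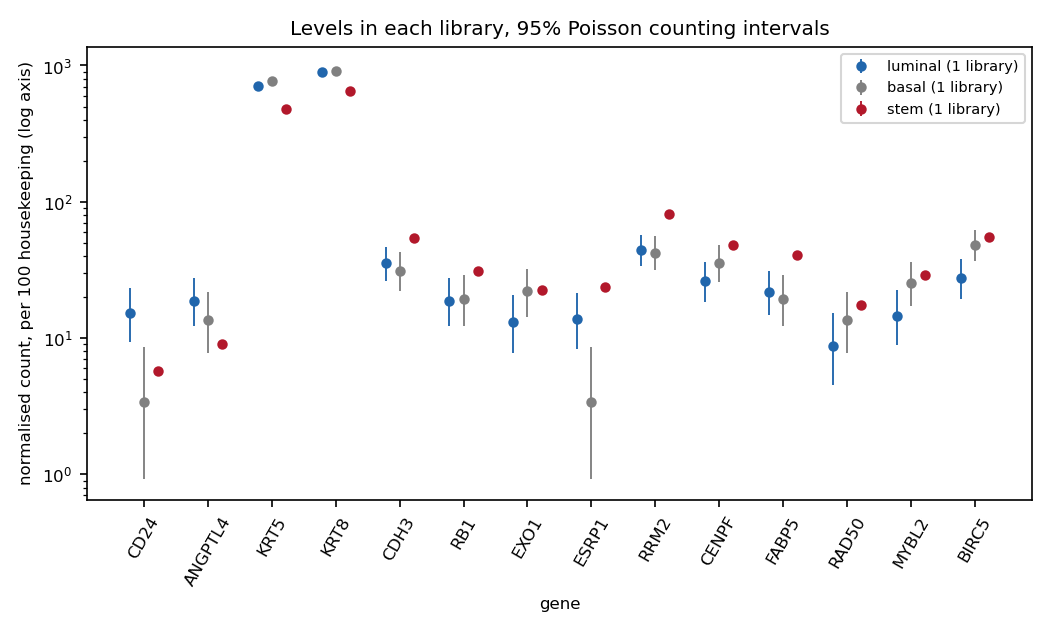
Normalised counts per 100 of the housekeeping mean (vertical log axis) in the luminal, basal and stem libraries, 1 library each, for the 4 genes with intervals below 1 and the 10 highest ratios among those with intervals above 1. Bars are exact 95% Poisson intervals. CD24 is highest in luminal, and stem is highest for RRM2, FABP5, ESRP1, CDH3 and RB1, while for BIRC5 and MYBL2 basal lies close to stem.

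The genes higher in stem than luminal fell into different positions relative to the basal library. Of the 19, 8 had intervals above 1 for stem over basal as well, a criterion met by 11.4% of the 105 genes. They were RRM2, FABP5, ESRP1, CDH3, RB1 and F11R, with log2 ratios of 0.95, 1.06, 2.81, 0.80, 0.67 and 0.76, and, barely, CENPF at 0.44 (0.01 to 0.92) and CAV1 at 0.39 (0.03 to 0.76). UBE2C ran the other way, at -0.33 (lower bound -0.65, upper bound just under 0), a criterion met by 10.5% of the 105. For the other 10 that interval included 1, among them BIRC5, MYBL2, EXO1 and RAD50 with log2 ratios of 0.20, 0.20, 0.04 and 0.36. The comparisons with luminal and with basal share the stem library, so they are not independent.

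The scale between the libraries decided part of these results. The housekeeping genes themselves ranged from RPLP0 and ACTB, given above, to MRPL19, a mitochondrial ribosomal protein gene with 26 luminal and 3413 stem counts, at 0.50 (-0.06 to 1.11). PSMC4, of the proteasome, had 42 and 4158 counts and stood at 0.09 (-0.35 to 0.56). SF3A1, a splicing factor, had 22 and 1715 counts and stood at -0.26 (-0.86 to 0.42). Without RPLP0 or without SF3A1 among the housekeeping genes, BIRC5 and MYBL2 were under 2-fold and no gene was called higher, while CD24 and ANGPTL4 stayed called. Without MRPL19, or when scaled by total count, ANGPTL4 was under 2-fold and CD24 alone was called lower. BIRC5, MYBL2, RRM2, CENPF and FABP5 kept intervals above 1 under all 12 alternative scales, backgrounds and intervals tried. On the scale of the spiked positive controls, which does not correct for the amount of sample RNA, every log2 ratio is higher by 1.66. That puts CD24, ANGPTL4, KRT5 and KRT8 above 0. The pair ratios within a library are free of this choice.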

How the data were processed

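Raw counts per probe were deposited by the authors for 3 libraries, without normalization per the file headers, and the lowest listed count is 1. The log2 values the authors deposited for 105 genes matched the raw counts scaled to the 5 housekeeping genes to within 3.53e-09 and were used only for this check. The steps before the counts are not given in the sources used here beyond the manufacturer's protocol named in the labels.

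Each ratio was given an exact 95% interval conditional on the sum of both counts (Clopper-Pearson, scipy 1.17.1), and each pair ratio an exact conditional interval of the odds ratio. The intervals of the single-gene ratios, but not those of the pairs, were run on simulated counts. Those counts held counting error only, with the scale known, so the run cannot speak to other error. Full values are given for genes past the 2-fold call, up to 10 genes in each direction with intervals excluding 1, the housekeeping genes and a fixed set of markers, and other genes by list. The genes, lists and pairs were chosen with earlier results of these data known, and the 9 genes outside the lists were grouped after their values were seen. Of those 9 genes, 3 are counted but not reported here singly, 1 of them with an interval above 1. Probe accessions were matched to RefSeq (GRCh38.p14), 109 of 110 in all. Intervals cover counting error only.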

Additional observations from a re-analysis of the deposited data

Results flagged for a closer look

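Control probes, which are no part of the gene comparison, gave signal of their own. The positive controls, spiked RNA, summed to 2795 counts in the luminal and 69670 in the stem library, or 3.27 and 11.4 endogenous counts per positive control count. In basal they summed to 776, or 11.5 endogenous counts per positive control count, so luminal stood apart from both others. The negative controls, probes without a target, summed to 73 counts over 8 probes in stem and 9 in luminal. With a mean of 9.13 counts per negative probe, the stem background was small beside the lowest stem count among the 58 genes, 688. It was less so in luminal, with a mean of 1.125 beside a lowest count of 10. With background subtracted, RAD50 stood at 1.10 and 3 genes were called higher.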

How the results depend on the processing

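No paired analysis was possible because each subpopulation has 1 library, and leaving out a replicate was not possible either. The main counts were 2 genes called 2-fold higher and 2 lower, 19 intervals above 1 and 4 below, and a median log2 ratio of 0.29. The positive control scale gave 56 and 0 genes called higher and lower, 57 and 0 intervals above and below 1, and a median of 1.95; with probes A to D only, chosen after seeing the data, these were 56, 0, 57, 0 and 2.06. On the positive control scale CD24 stood at 0.25, ANGPTL4 at 0.61, KRT5 at 1.09 and KRT8 at 1.19, and with probes A to D at 0.37, 0.72, 1.21 and 1.30. The total count scale gave 4 higher and 1 lower. Median of ratios, which sets the median to 0, gave 0 higher, with 6 intervals above and 12 below 1. Leaving out MRPL19 gave 6 higher and 1 lower, leaving out RPLP0 gave 0 higher with 12 intervals above and 9 below 1, and leaving out SF3A1 gave 0 higher. An interval that leaves 0.1% outside left 1 lower and 6 intervals above 1. At 1.5-fold 11 were higher, and at 3-fold 0 were higher and 0 lower. An alternative added after seeing the data set the minimum on the stem count, at the equivalent of 10 luminal counts (931). CD24, SPINT1 and DDR1 then dropped out and 1 gene was lower. Without ACTB or PSMC4, with background subtracted, with the widened interval and with minimums of 5, 20 or none, the counts stayed within 1.5 times, although with no minimum the median was 0.02. That median takes in the 29 genes listed at 1 in luminal. The causes were not tested. The luminal depth limits what could be called.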
